A study of Homo sapiens with 6 samples.

Results

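The genes described here carry the signal of a death receptor at the cell surface to caspases and mitochondria. They were the rows of the deposited expression table whose symbol is on a list of 8: the receptor genes TNFRSF10A, TNFRSF10B and FAS, the adaptor gene FADD, the protease genes CASP8 and CASP9, the inhibitor gene CFLAR and the linker gene BID. Of these, 7 were among the 11911 genes of the table, and TNFRSF10A was not analysed here. RNA was sequenced from RS4;11, a human cell line established from acute lymphoblastic leukemia of the B-cell precursor type. The sample titles give 3 libraries with asparagine and 3 without, and the series gives 16 hours between withdrawal and collection. The protocol entered for every sample is resuspension in medium that lacks asparagine and holds dialyzed serum, and what was added for the cells with asparagine is not stated. The column names of the depleted arm could also stand for asparaginase, an enzyme that removes asparagine, and this could not be settled. All libraries come from 1 cell line, and separate cultures within a group are not stated. The p-values therefore rest on the spread between these libraries alone, which may be technical.

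Death receptors are transmembrane proteins of the tumour necrosis factor receptor family. When a ligand such as TRAIL (for the products of TNFRSF10A and TNFRSF10B) or FAS ligand (for FAS) binds, the receptor recruits the adaptor FADD, which gathers procaspase-8 into a complex where it becomes an active protease. The product of CFLAR, known as c-FLIP, resembles caspase-8 and limits its activation in that complex. Active caspase-8 can cleave BID, whose fragment acts on mitochondria, and cytochrome c released from them activates caspase-9 on the APAF1 scaffold. TNFRSF10B is a known target of the stress factor CHOP and of p53.

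All values are normalized CPM, reads per gene scaled by the authors in a way that is not stated. The totals were 1018766 to 1031234 CPM in libraries with asparagine and 918783 to 952458 CPM in depleted libraries, so the libraries do not share 1 total. Log2 fold changes are depleted minus with asparagine on the log2(CPM + 1) scale from a limma model of all genes. The p-values are Benjamini-Hochberg adjusted, with a threshold of 0.05. In the cells without asparagine, TNFRSF10B was 14.1-fold higher and BID was 3.86-fold lower. CFLAR and CASP8 rose 1.94-fold and 1.72-fold. FAS rose 1.91-fold from a very low level, and that call ended in several alternative analyses. FADD and CASP9 did not pass the test. Of the 7 genes, 4 were higher and 1 was lower, where 25.1% of the 11892 genes tested were higher and 26.2% lower. The values of the groups did not overlap in 6 of the 7, with the depleted libraries above in 5 and below in 1. Over all genes tested that held for 61.1%, 30.2% above and 30.8% below. Shares of this size over all genes mean that the counts alone set the 7 genes little apart, and the sizes of change are given below. Only RNA was measured, and in RNA from bulk cells fewer cells of a type and less RNA per cell cannot be told apart.

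**Figure D1:**
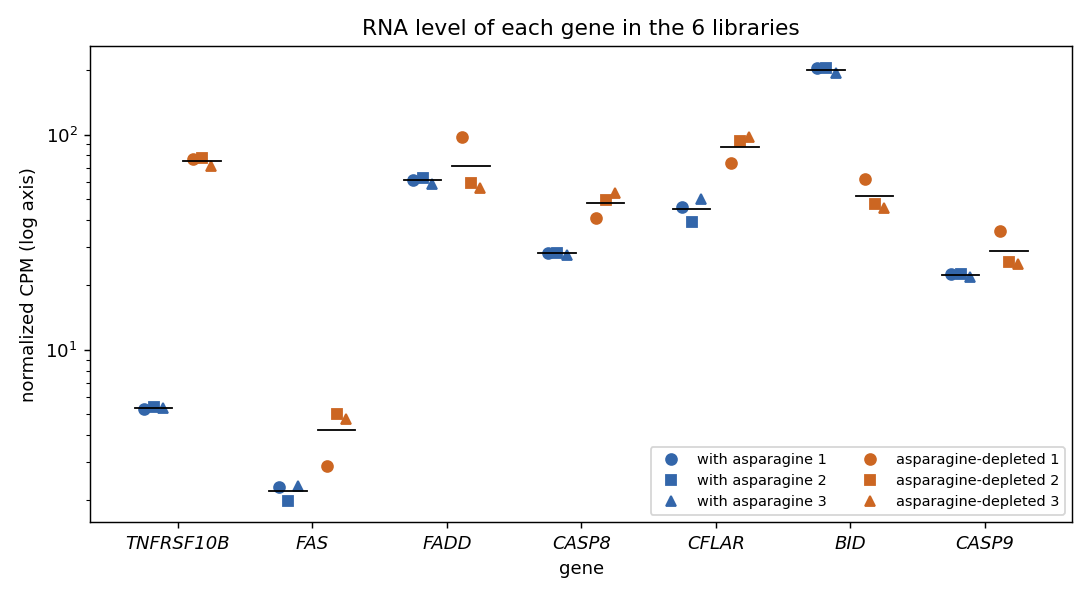
Normalized CPM (log axis) of each gene in each library, with circles, squares and triangles for libraries 1, 2 and 3, blue with asparagine and orange without, and a black line at the group mean. TNFRSF10B moved from a mean of 5.37 to 75.6 and BID from 200.4 to 51.9, while depleted library 1 stood above the other depleted libraries for FADD and CASP9.

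Depleted libraries 2 and 3 resembled each other more (Pearson's r = 0.996 across genes, which are not independent replicates) than either resembled depleted library 1 (r = 0.940 and 0.933). Genes of high and low GC content moved in opposite directions in depleted libraries 2 and 3 and hardly moved in library 1. The result of each member is therefore also given without depleted library 1 and after a GC correction. That correction removes from each library the trend of its deviations on transcript GC content. For the other genes of the pathway these values are given only in part. Without depleted library 1, 40.5% of all genes were higher and 41.3% lower, and 4 members were higher and 1 lower. After the GC correction these were 35.2% and 34.3% of all genes, and 5 members and 1 member. All 8 B-precursor markers on a list of CD79A, CD79B, PAX5, EBF1, DNTT, RAG1, VPREB1 and IGLL1 had values, summing to 3496 to 3714 CPM with asparagine and 2746 to 3517 in depleted libraries. Of 5 myeloid markers only CSF1R and ITGAM had values, 32.1 to 33.3 CPM in sum with asparagine and 17.5 to 31.0 in depleted libraries, and 0 of 5 T cell and 0 of 4 erythroid markers did. The part of marker levels in the results below was not tested.

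The sequence upstream of a gene's start differed widely in base composition between these genes, a measure separate from the GC content of transcripts used in the correction. RefSeq windows (build GRCh38.p14, 250 bases before to 50 after a start) matched 6 members, FAS, FADD, CASP8, CFLAR, BID and CASP9. Those of 3 genes are shown, CASP8 as a gene that rose, BID as the gene that fell and CASP9 as a gene whose call depended on the GC correction. Each is cut at the first base that lies in an annotated exon of the gene in GENCODE 29, and capitals mark matches to the GC box GGGCGG on either strand.
CASP8, chr2:201233213-201233442, plus strand: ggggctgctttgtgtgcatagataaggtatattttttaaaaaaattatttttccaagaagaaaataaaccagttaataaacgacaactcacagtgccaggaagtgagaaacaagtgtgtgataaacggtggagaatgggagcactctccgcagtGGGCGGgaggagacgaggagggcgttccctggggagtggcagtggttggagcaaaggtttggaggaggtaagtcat
BID, chr22:17774771-17774915, minus strand: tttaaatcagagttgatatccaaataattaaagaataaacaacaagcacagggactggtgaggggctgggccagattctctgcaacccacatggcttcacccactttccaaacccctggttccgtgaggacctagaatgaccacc
CASP9, chr1:15524890-15525040, minus strand: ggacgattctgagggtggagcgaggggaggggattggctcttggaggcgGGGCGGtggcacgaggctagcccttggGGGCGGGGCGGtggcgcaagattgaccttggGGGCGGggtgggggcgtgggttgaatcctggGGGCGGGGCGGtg
Over the 250 bases before the most upstream RefSeq start, GC content was 45.6% for CASP8, 47.6% for BID and 71.6% for CASP9, and 62.8% for FAS, 68.8% for FADD and 58.8% for CFLAR. Upstream and transcript GC content did not go together for every gene, since FAS and CFLAR transcripts have 41.9% and 46.9%. The CASP9 stretch lies inside the gene as GENCODE 29 draws it, because that annotation also has a start further upstream. The CASP9 window held 8 GC box matches, some of which overlap each other by 1 base, the CASP8 window 1 and the BID window 0. CG dinucleotides numbered 6, 4 and 25, against a median of 11 over all 35116 RefSeq windows.

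Of the 18 RefSeq starts of the 6 genes, 13 had a GC box in the 250 bases before them, a motif that 42.6% of all windows of that length hold. TNFRSF10B was not among the 6 genes, so these counts do not describe it. On both strands, the C/EBP-ATF composite motif TGATGNAA and the cAMP response element TGACGTCA were in 0 of the 18 windows and in 3.14% and 1.65% of all windows. The AP-1 motif TGANTCA was in 3 windows, 1 each of FAS, CASP8 and CFLAR, and in 6.57% of all. The E-box CACGTG was in 2 windows, both of BID, and in 6.34% of all. Windows of 1 gene can share bases, no motif was required to be free of another, and a match describes letters only. The expression table does not tell which start was used.

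TNFRSF10B encodes a TRAIL receptor with a cytoplasmic death domain (chromosome 8, 23020133 to 23069179, minus strand, GRCh38 in GENCODE 29). Its level was 5.29, 5.43 and 5.38 CPM in libraries 1, 2 and 3 with asparagine, and 77.2, 78.0 and 71.6 CPM in the depleted libraries. Every depleted library lay far above every library with asparagine, and depleted library 1 did not stand apart for this gene. The mean rose from 5.37 ± 0.0743 to 75.6 ± 3.45 CPM (SD, n = 3 each), an increase of 3.59 on the log2 scale (SE 0.12, 95% interval 3.31 to 3.87, limma adjusted p = 3.03e-05). That was the 30th highest log2 fold change of the 11892 genes. Leaving out depleted library 1 gave 3.57 (limma adjusted p = 3.48e-09), and the GC correction gave 3.66 (adjusted p = 1.65e-07). Between 188 and 3287 reads per library stood behind these values. The gene shares 67 bases with RHOBTB2 on the opposite strand, and RHOBTB2 went the other way, from 10.6 ± 0.334 to 6.79 ± 0.955 CPM (limma adjusted p = 0.014, or 0.32 after the GC correction).

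FAS encodes the receptor of FAS ligand (chromosome 10, 88990582 to 89015785, plus strand). It was the lowest of the members, also per length, with 2.31, 1.99 and 2.33 CPM with asparagine and 2.89, 5.0 and 4.77 CPM in depleted libraries 1, 2 and 3. Depleted library 1 lay only just above the libraries with asparagine, and the other depleted libraries lay clearly above. The mean went from 2.21 ± 0.193 to 4.22 ± 1.16 CPM (SD, n = 3 each), a log2 difference of 0.68 (SE 0.19, limma adjusted p = 0.0256) on 72 to 178 reads per library. Genes within 1 percentage point of the GC content of FAS transcripts (41.9%) had medians of 0.047, 0.66 and 0.69 on the log2 scale in depleted libraries 1, 2 and 3 relative to the mean with asparagine, beside 0.28, 0.90 and 0.85 for FAS itself. Without depleted library 1 the change of FAS was 0.88, and after the GC correction it was 0.23 and did not pass (limma adjusted p = 0.079). Over 17 alternatives the adjusted p ranged from 0.000113 to 0.122. At so low a level the added 1 CPM shrinks the log2 difference of FAS, which was 0.83 with 0.25 CPM added and 0.40 with 4 CPM. The GC correction was run only with 1 CPM added, so its value for FAS, and the distance of FAS from genes of like GC content, carry that shrinkage. FAS shares 758 bases with ACTA2 on the opposite strand, and ACTA2 rose from 1.75 ± 0.0996 to 4.69 ± 1.13 CPM (limma adjusted p = 0.0034). No strand setting is stated, so reads of the shared bases cannot be told apart, and their part in the FAS value was not tested.

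FADD encodes the adaptor that joins death receptors to caspase-8 (chromosome 11, 70203163 to 70207390, plus strand). Its level was 61.4, 63.1 and 59.1 CPM with asparagine and 97.8, 59.5 and 56.2 CPM in depleted libraries 1, 2 and 3. Only depleted library 1 was high, and the groups overlapped. The log2 fold change was 0.17 (95% interval -0.35 to 0.69, limma adjusted p = 0.534), and it turned to -0.079 without depleted library 1 (adjusted p = 0.371). FADD transcripts are GC-rich at 58.6%, and genes of like GC content had medians of -0.041, -0.63 and -0.68 in depleted libraries 1, 2 and 3, where FADD had 0.67, -0.038 and -0.12. Measured against that trend FADD was higher in all depleted libraries, with a log2 fold change of 0.63 after the GC correction (limma adjusted p = 0.000111) and 0.58 when depleted library 1 was left out as well (adjusted p = 9.19e-06).

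CASP8 encodes the initiator protease of the receptor complex (chromosome 2, 201233443 to 201287711, plus strand). It stood at 28.2, 28.3 and 27.6 CPM with asparagine and at 41.0, 49.9 and 53.5 CPM in depleted libraries 1, 2 and 3. All depleted values were above all others. The mean rose from 28.0 ± 0.407 to 48.1 ± 6.43 CPM (SD, n = 3 each), an increase of 0.75 on the log2 scale (SE 0.14, limma adjusted p = 0.00557). It was 0.86 without depleted library 1 and 0.42 after the GC correction (adjusted p = 5.78e-06 and 0.00159). Genes of like GC content (44.2%) had medians of 0.07, 0.46 and 0.51 in depleted libraries 1, 2 and 3, below the 0.53, 0.81 and 0.91 of CASP8 in each library.

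CFLAR, the gene of the caspase-8 inhibitor c-FLIP, lies upstream of CASP8 on the same chromosome (chromosome 2, 201116104 to 201176687, plus strand). It stood at 46.3, 39.1 and 50.4 CPM with asparagine and at 73.4, 93.3 and 97.3 CPM in depleted libraries 1, 2 and 3. The groups did not overlap, and library 1 was the lowest of the depleted ones, as it was for CASP8. The mean rose from 45.3 ± 5.70 to 88.0 ± 12.8 CPM (SD, n = 3 each), an increase of 0.94 on the log2 scale (SE 0.16, limma adjusted p = 0.00427). Leaving out depleted library 1 gave 1.07 (limma adjusted p = 6.27e-06), and the GC correction gave 0.77 (adjusted p = 0.000346). The span of CFLAR, introns included, overlaps that of the antisense gene CFLAR-AS1 over 17546 bases. Whether the genes share exon bases was not examined, and reads of any such bases cannot be told apart without a strand setting.

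The level of CFLAR relative to CASP8 within a library bears on whether inhibitor and protease changed in proportion, and it does not depend on how libraries are scaled. The log2 ratio of their CPM values was 0.72, 0.47 and 0.87 with asparagine and 0.84, 0.90 and 0.86 in depleted libraries 1, 2 and 3. The depleted values lay close together, near the highest value with asparagine. The mean was 0.68 ± 0.20 and 0.87 ± 0.033 (SD, n = 3 each), a difference of 0.18 (exact permutation test, two-sided p = 0.3, where the smallest p that 3 against 3 libraries allow is 0.1). After the GC correction the difference was 0.35, and without library 2 or library 3 with asparagine it was 0.076 or 0.28. At this number of libraries the test cannot pass 0.05, so whether the ratio shifted is not settled by it.

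BID encodes a BH3-only protein that caspase-8 cleaves (chromosome 22, 17734138 to 17774770, minus strand). It was the most abundant member with asparagine, also per length, at 203.6, 204.8 and 192.8 CPM, and stood at 62.2, 47.8 and 45.8 CPM in depleted libraries 1, 2 and 3. All depleted libraries were far below all others. The mean fell from 200.4 ± 6.62 to 51.9 ± 8.96 CPM (SD, n = 3 each), a log2 difference of -1.94 (SE 0.15, 95% interval -2.29 to -1.59, limma adjusted p = 0.000264). This was the 164th lowest value of the 11892 genes. Leaving out depleted library 1 gave -2.07 (limma adjusted p = 8.00e-09), and the GC correction gave -2.02 (adjusted p = 1.17e-05). Genes of like GC content (48.7%) had medians of 0.041, 0.11 and 0.096 in depleted libraries 1, 2 and 3, while BID had -1.67, -2.04 and -2.10.

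CASP9 encodes the initiator caspase of the mitochondrial route (chromosome 1, 15490832 to 15526534, minus strand). It stood at 22.5, 22.6 and 21.8 CPM with asparagine and at 35.5, 25.5 and 25.0 CPM in depleted libraries 1, 2 and 3. The depleted values were all above the others, by little in libraries 2 and 3. The log2 fold change was 0.33 (95% interval -0.062 to 0.72) and did not pass (limma adjusted p = 0.133), nor did it without depleted library 1 at 0.17 (adjusted p = 0.0967). CASP9 transcripts have 55.5% GC, and genes of like GC content had medians of -0.0058, -0.42 and -0.45 in depleted libraries 1, 2 and 3. After the GC correction the change was 0.64 (limma adjusted p = 0.000103), close to the 0.63 of FADD.

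**Figure D2:**
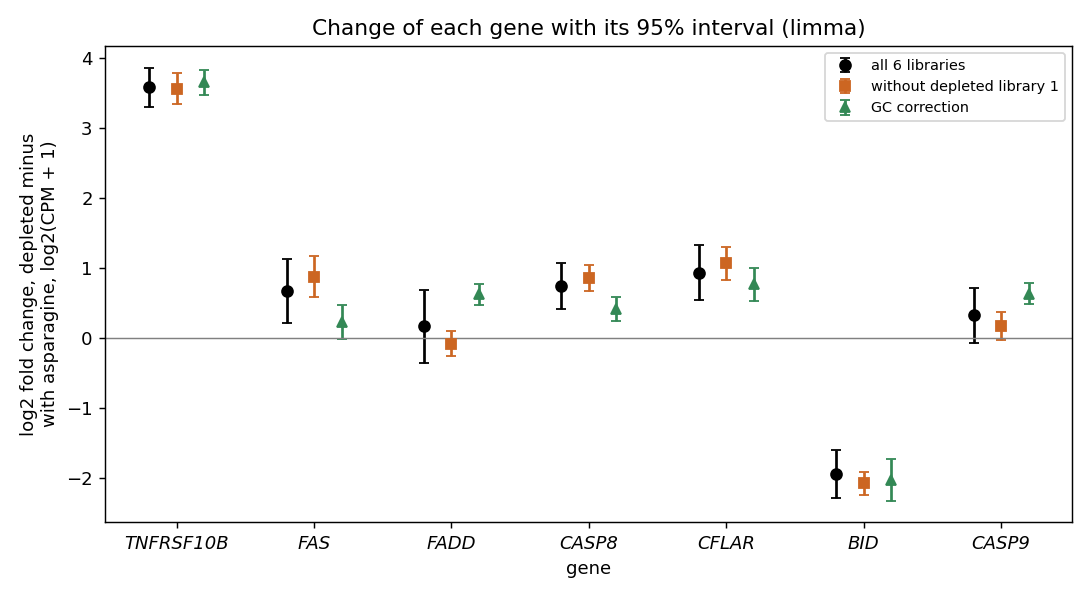
Log2 fold change of each gene, depleted minus with asparagine on the log2(CPM + 1) scale, with 95% intervals from limma, over all 6 libraries (circles), without depleted library 1 (squares) and after the GC correction (triangles). TNFRSF10B and BID hardly moved between the analyses, FAS went from 0.68 to 0.23 with the correction, and FADD and CASP9 went from 0.17 and 0.33 to 0.63 and 0.64.

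**Figure D3:**
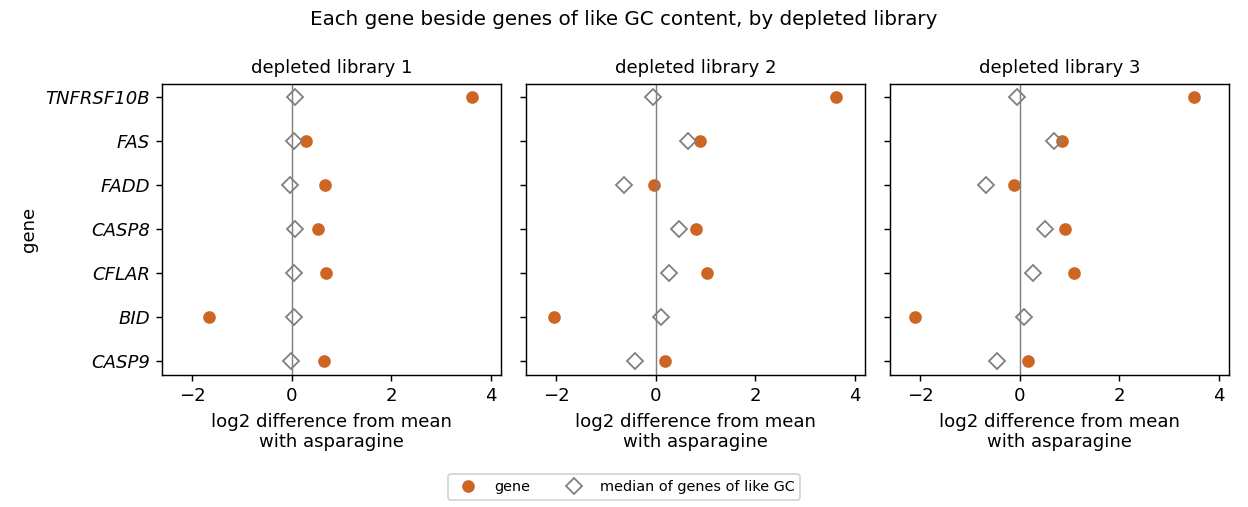
Difference of each gene from its mean with asparagine, log2(CPM + 1), in each depleted library (filled circles), beside the median of genes within 1 percentage point of its transcript GC content (open diamonds). FAS sits slightly to the right of its diamond in all 3 libraries, FADD and CASP9 sit to the right of theirs in all 3 libraries, and TNFRSF10B and BID are far from theirs in each.

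Levels of different genes can be compared only per length, here CPM per kilobase of the median protein-coding transcript in GENCODE 29, an approximation since the table does not show which transcripts were present. With asparagine the order of this level was BID (100.8 ± 3.33), CFLAR (37.3 ± 4.69), FADD (33.2 ± 1.10), CASP8 (22.0 ± 0.319), CASP9 (19.4 ± 0.360), TNFRSF10B (1.83 ± 0.0253) and FAS (1.60 ± 0.139, SD, n = 3 each). The ranges of CFLAR and FADD overlapped, and those of the other neighbours did not. In depleted cells the order was CFLAR (72.5 ± 10.6), FADD (38.7 ± 12.6), CASP8 (37.8 ± 5.04), BID (26.1 ± 4.51), TNFRSF10B (25.8 ± 1.18), CASP9 (24.9 ± 5.10) and FAS (3.05 ± 0.838). There the range of FADD overlapped those of CASP8, BID and CASP9, and the ranges of BID, TNFRSF10B and CASP9 overlapped each other. TNFRSF10B thus moved from near the level of FAS to that of BID and CASP9.

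For each member that passed, the genes with the most similar pattern were the 2 with the smallest root mean square difference of centred log2(CPM + 1) values over the 6 libraries. For TNFRSF10B these were WARS (difference 0.051, log2 fold change 3.65, from 181 ± 0.541 to 2278 ± 74.2 CPM) and VEGFA (0.065, log2 fold change 3.57). For BID they were DNAJB1 (0.047, log2 fold change -1.94, from 271.5 ± 11.3 to 71.0 ± 15.9 CPM) and PFAS (0.053, log2 fold change -1.91). CFLAR was nearest to CLECL1 and TM2D1 (0.038 and 0.05), CASP8 to L3MBTL4 and IFIT2 (0.029 and 0.032), and FAS to DTX3L and NAA30 (0.041 each). With 2 groups of libraries such a measure mainly reflects the size of the difference between the groups and the place of depleted library 1.

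Other genes of the pathway were taken from 5 lists with 62 genes outside the 8, of which 51 had values and 50 were tested. Of these, 9 were higher and 18 lower, with a median log2 fold change of -0.087, where 25.1% of all genes were higher and 26.2% lower and the median was 0.0098. The count depended on the libraries used. Without depleted library 1, 17 were higher and 27 lower, and the lower count was 8, 7 and 9 without library 1, 2 or 3 with asparagine and 7 and 10 without depleted library 2 or 3. After the GC correction 12 were higher and 21 lower.

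Among ligands and other receptors, 3 genes were tested, 1 of them higher and 1 lower, where 25.1% of all genes were higher and 26.2% lower. TNFRSF1A, the main receptor of tumour necrosis factor, rose from 18.7 ± 1.64 to 36.4 ± 9.89 CPM (limma adjusted p = 0.0137), a call lost without library 2 or library 3 with asparagine (adjusted p = 0.0529 and 0.0528). TNFRSF21, another receptor with a death domain, fell from 14.1 ± 1.01 to 4.11 ± 0.221 CPM (limma adjusted p = 0.000325). TNF stood at 5.96 ± 0.487 and 5.14 ± 1.29 CPM and did not pass (limma adjusted p = 0.375, or 0.0212 with a log2 fold change of -0.36 without depleted library 1). The TRAIL and FAS ligand genes, TNFSF10 and FASLG, were not analysed here.

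Adaptors and regulators of receptor complexes had a median of 0.035, and of 15 tested 4 rose and 3 fell. Over all genes tested, 25.1% rose and 26.2% fell. TNFAIP3, a ubiquitin-editing brake on NF-kB signalling, rose 4.45-fold from 8.82 ± 0.390 to 39.2 ± 4.57 CPM (limma adjusted p = 0.000186). CYLD, a deubiquitinase of the same complexes, rose 3.56-fold to 75.5 ± 20.3 CPM, and CASP10, the caspase most like CASP8, rose 2.17-fold to 29.1 ± 2.79 CPM (adjusted p = 0.00123 and 0.00136 by limma). TRADD, the adaptor of the tumour necrosis factor receptor, fell from 44.2 ± 5.39 to 22.6 ± 9.82 CPM, with a log2 fold change of -1.01 that shrank to -0.32 after the GC correction (limma adjusted p = 0.0237 and 0.00586). The TRADD call was lost without library 1 or 2 with asparagine and without depleted library 2 or 3 (limma adjusted p up to 0.085).

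Other caspases and apoptosome genes had a median of 0.048, and of 10 tested 0 rose and 4 fell. The shares over all genes were 25.1% and 26.2%. PIDD1, the scaffold gene of the caspase-2 complex, fell from 147.1 ± 17.7 to 42.0 ± 18.6 CPM (log2 fold change -1.86, limma adjusted p = 0.00268, with a GC-corrected value of -1.11). CASP2 itself fell from 260.1 ± 11.6 to 140.2 ± 16.1 CPM (limma adjusted p = 0.00204). CYCS, the gene of cytochrome c, and CASP6, an executioner caspase, had log2 fold changes of -0.52 and -0.49 (limma adjusted p = 0.0146 and 0.0451). The CYCS change was -0.90 and the CASP6 change -0.78 after the GC correction. The CYCS call was lost without library 2 or 3 of either group (limma adjusted p up to 0.0702). The CASP6 call was lost without any 1 library with asparagine, without depleted library 2 and with the replicate block (limma adjusted p up to 0.14, and 0.0565 with the block).

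The 7 genes of inhibitors of apoptosis proteins (IAPs, which bind caspases or their regulators) and their antagonists had a median of 0.82. Of these, 4 were higher and 1 lower, where 25.1% of all genes were higher and 26.2% lower. XAF1, which encodes a protein known to bind XIAP, rose 4.51-fold from 37.2 ± 4.53 to 167.5 ± 39.0 CPM (limma adjusted p = 0.000561). BIRC2 and XIAP, both IAP genes, rose 2.89-fold and 2.50-fold (limma adjusted p = 0.00799 and 0.0103), and the XIAP log2 fold change of 1.24 was 0.66 after the GC correction. HTRA2, a mitochondrial protease that antagonises IAPs, fell from 56.4 ± 2.63 to 30.7 ± 11.3 CPM (log2 fold change -0.91, limma adjusted p = 0.0192, with a GC-corrected value of -0.47). The HTRA2 call was lost with any 1 library left out other than depleted library 1 (limma adjusted p up to 0.0716). DIABLO, another antagonist gene, and the IAP gene BIRC5 did not pass (log2 fold changes -0.031 and -0.076, limma adjusted p = 0.876 and 0.702). XAF1 thus rose together with IAP genes, while the antagonist genes HTRA2 and DIABLO did not rise. The median of the list was 0.42 after the correction.

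Caspase substrates and executors of cell death had a median of -0.48, with 0 of 15 higher and 9 lower. Over all genes tested, 25.1% were higher and 26.2% lower. PARP1, a DNA repair enzyme and classic caspase substrate, fell from 1167 ± 45.2 to 440.6 ± 35.7 CPM (limma adjusted p = 0.000268). DFFA, the inhibitor of the apoptotic nuclease, fell from 42.2 ± 1.56 to 21.5 ± 6.15 CPM (limma adjusted p = 0.00807). ENDOG, a mitochondrial nuclease gene, stood at 66.0, 20.8 and 16.0 CPM in depleted libraries 1, 2 and 3 against a mean of 90.1 ± 7.31 CPM with asparagine, and its log2 fold change of -1.64 was -0.82 after the GC correction (limma adjusted p = 0.0271 and 0.0111). GSDMD, the gene of a pore-forming gasdermin, had a log2 fold change of -0.98 that became -0.32 with the correction (limma adjusted p = 0.0329 and 0.00847). The ENDOG and GSDMD calls were both lost with any 1 library left out other than depleted library 1 (limma adjusted p up to 0.0883 and 0.107), and that of GSDMD also with quantile normalization (adjusted p = 0.0549).

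**Figure D4:**
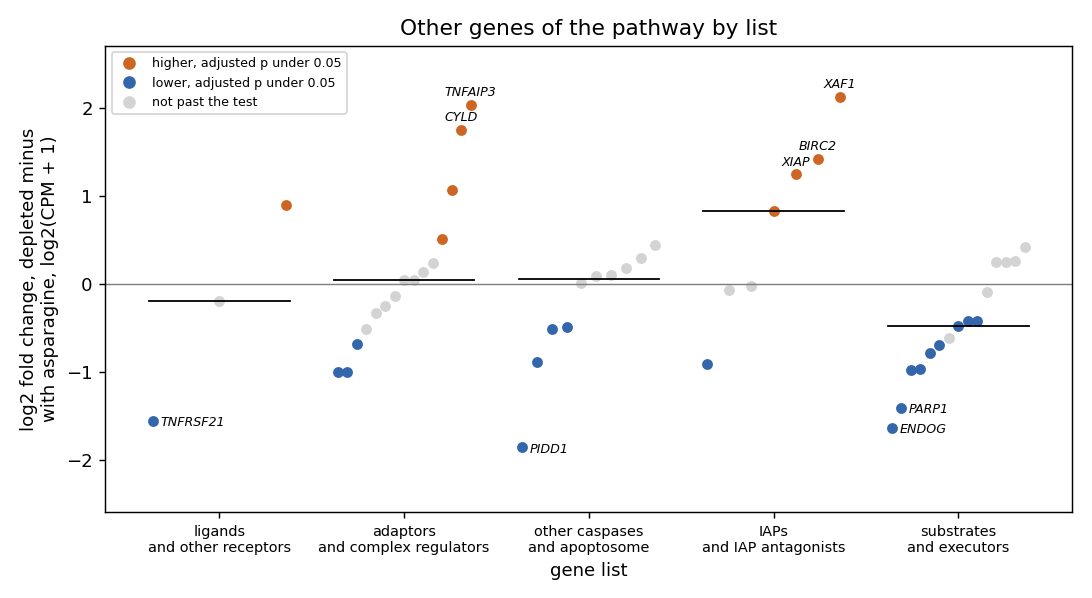
Log2 fold change, depleted minus with asparagine on the log2(CPM + 1) scale, of each tested gene of the 5 pathway lists (points), with the list median as a black line, orange for higher, blue for lower and grey for genes that did not pass limma's adjusted threshold. The caspase and the substrate lists hold 0 orange points, where 25.1% of all genes tested were higher, and the IAP list has the highest median at 0.82.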

How the data were processed

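RNA levels of RS4;11 cells were measured in 3 libraries with asparagine and 3 without. The submitters' processing notes name FastQC, STAR, Subread's featureCounts and the build GRCh38. Not given in the sources used here are versions, annotation, strand setting, scaling and the low-gene filter. The deposited table holds a scaled signal, normalized CPM. Every value of a column was a whole multiple of 1 step (100% of values, tolerance 1e-06), taken as 1 read, which gave 29971364 to 51127073 reads per library. Columns were matched to samples by arm and replicate number.

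In R 4.3.3 with limma 3.58.1, log2(CPM + 1) of the 11892 genes that reached 1 CPM in 3 or more libraries was fitted with group as the only term and an intensity trend. Two-sided p-values were adjusted by Benjamini-Hochberg over all genes. The GC correction (lowess, span 0.3) covered 11344 genes, with GC and length from GENCODE 29 transcripts. The model was tested on simulated data with independent noise for each gene. These had no library or GC effect shared between genes, so that test does not cover the uneven depleted libraries.

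The members and lists were chosen with earlier results of these data known. Named genes were all members, up to 4 per list by size of change among genes that passed and had a group mean of 5 CPM or more, and the 2 nearest profiles of each member that passed. Some genes on the lists are not reported here. The ratio of TNFRSF10B to TNFRSF10A was planned and could not be computed. A count test was planned and not run, because the table holds too few low values to establish the read step by the criterion set for it.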

Additional observations from a re-analysis of the deposited data

How the results depend on the processing

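The calls of TNFRSF10B, CASP8, CFLAR and BID kept their direction and their side of the threshold in all 18 alternatives run for each: other pseudocounts (0.25 or 4 CPM), other filters (none or 5 CPM), 2 other scalings (trimmed mean of log ratios, quantiles), 2 other moderations (trend removed, robust), the replicate block, each library left out, and the GC correction. Chosen after seeing the data were that correction combined with leaving out depleted library 1 and voom weights on recovered reads. FAS lost its call in 8 of 17 alternatives, namely quantile normalization, both GC-corrected fits and every library left out except depleted library 1, and the 5 CPM filter removes it. FADD and CASP9 gained a call in both GC-corrected fits, and the FADD change was -0.079 to 0.32 with 1 library left out, the negative value without depleted library 1. With 1 library left out, the members numbered 3 to 4 higher and 1 lower, the pathway genes 6 to 17 higher and 7 to 27 lower, all genes 1728 to 4812 higher and 1814 to 4913 lower, and the difference in the CFLAR to CASP8 log2 ratio was 0.076 to 0.28. It was 0.35 after the GC correction. Combining the correction with the removal of depleted library 1 gave 4486 higher genes. Whether the replicate numbers pair the samples is not settled. Same-numbered libraries had correlations of their deviations of 0.0832, -0.645 and 0.686. Library 3 with asparagine correlated alike with depleted libraries 2 and 3 (0.713 and 0.686), so these values cannot tell pairs apart. With the number as a block, 2824 genes were higher and 2989 lower, members 4 and 1. FAS rested on the fewest reads of the members, 72 to 178 per library.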
